A study of Homo sapiens with 6 samples.

Results

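The MAGE genes and the other large families of cancer-testis antigens were examined in H526 cells, an established human small cell lung cancer (SCLC) line, before and after the cells became resistant to onvansertib, an inhibitor of the mitotic kinase PLK1. Members were taken by gene symbol from the deposited expression table. They were the protein-coding genes whose symbol begins with MAGEA, MAGEB, MAGEC, MAGED, MAGEE, MAGEF, MAGEH, GAGE, PAGE, XAGE, SSX, CT45, CT47 or CTAG. This gave 99 of the 62710 genes in the table, and 14 of them averaged 10 or more across the 6 libraries and are called detected here. The same minimum left 16347 genes of the whole table for testing. The 3 parental libraries (1, 2 and 3) came from H526 cells not selected with the drug. The 3 resistant libraries (7, 8 and 9) came from cells of the same line kept in onvansertib, raised stepwise from 10 to 75 nM. RNA of each group was taken at separate times and no second, independent selection is described, so p-values measure the spread between RNA samples and not between independent selections. The 7 genes *SSX2IP*, *CTAGE1*, *CTAGE4*, *CTAGE6*, *CTAGE8*, *CTAGE9* and *CTAGE15* match only by the start of their symbol, are no SSX or CTAG antigens and are counted apart.

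MAGE proteins share a folded region, the MAGE homology domain, through which many of them bind RING-type E3 ubiquitin ligases and direct them to substrates. The MAGEA, MAGEB and MAGEC genes lie on chromosome X, are normally used mainly in the germ cells of the testis, and are switched on in many tumours, where peptides of their products can be presented to T cells. Their silence in other tissues depends largely on methylation of CpG sites in the promoter. The MAGED, MAGEE, MAGEF and MAGEH genes are used in many normal tissues, above all in brain. GAGE, PAGE, XAGE, SSX, CT45, CT47 and CTAG (which includes the gene of the antigen NY-ESO-1) are unrelated or distantly related families with the same testis-and-tumour pattern.

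The promoters of 3 members are printed because these genes show the range of what was measured: a cancer-testis gene that was high only in parental cells (*MAGEC1*), one that was high in both groups (*MAGEA3*) and one that was low in parental and higher in resistant cells (*MAGEB2*). Each line gives the 250 bases before the transcription start from RefSeq on GRCh38.p14, 5′ to 3′ on the gene's own plus strand, and the capitals mark CG, the site of CpG methylation. They lie at chrX:141903644-141903893 for *MAGEC1*, chrX:152698544-152698793 for *MAGEA3* and chrX:30215313-30215562 for *MAGEB2*.
MAGEC1 promoter: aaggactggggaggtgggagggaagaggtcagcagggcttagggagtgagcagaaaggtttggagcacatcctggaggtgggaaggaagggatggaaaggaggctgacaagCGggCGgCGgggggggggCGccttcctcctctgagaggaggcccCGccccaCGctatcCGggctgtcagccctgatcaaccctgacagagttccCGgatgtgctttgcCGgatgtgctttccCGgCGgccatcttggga
MAGEA3 promoter: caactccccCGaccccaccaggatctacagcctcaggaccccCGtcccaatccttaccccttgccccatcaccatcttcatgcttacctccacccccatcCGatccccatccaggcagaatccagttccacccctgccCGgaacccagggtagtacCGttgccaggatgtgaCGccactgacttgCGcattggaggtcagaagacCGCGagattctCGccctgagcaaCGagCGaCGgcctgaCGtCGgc
MAGEB2 promoter: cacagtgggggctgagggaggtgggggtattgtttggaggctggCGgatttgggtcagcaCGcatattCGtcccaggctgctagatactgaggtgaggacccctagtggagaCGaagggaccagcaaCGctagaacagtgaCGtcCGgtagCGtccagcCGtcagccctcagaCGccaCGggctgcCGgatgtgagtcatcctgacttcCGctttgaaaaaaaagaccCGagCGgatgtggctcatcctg
The *MAGEC1* window held 11 CG, the *MAGEA3* window 15 and the *MAGEB2* window 15, against a median of 11 over 35116 human promoters of the same length. RefSeq windows were found for 71 of the 99 members, among them all 14 detected ones. For the undetected *MAGEC3* and *GAGE12B* the nearest RefSeq start lay 56350 and 188705 bases from the Gencode start. Their windows may not be the promoters of these genes but are counted below. The windows of the 6 detected cancer-testis genes held 11 to 15 CG (median 13), and those of 51 undetected cancer-testis genes held 1 to 18 (median 8), so the ranges overlap. The window of *MAGEA6* is identical to that of *MAGEA3*, with 0 positions that differ, and those of *MAGEA2* and *MAGEA2B* are identical to each other, so these 6 windows are only 4 different sequences. The letters CCGGAT were searched on both strands, because the *MAGEC1* and *MAGEB2* sequences were seen to share them. So was CCGGAA, which differs only in the last letter, with matches of one allowed to overlap the other. Both hold the letters GGA followed by A or T, the core of ETS factor sites. CCGGAT occurred 3 times before *MAGEC1*, once before *MAGEB2* and not before *MAGEA3*, where CCGGAA occurred once. At least 1 CCGGAT was present in 14 of 23 MAGEA, MAGEB and MAGEC windows (60.9%) and in 5.85% of all promoters, while CCGGAA was present in 3 of these 23 (13.0%) and in 14.5% of all. The 14 include *MAGEC1* and *MAGEB2*, which led to the search and so had to match, and the identical windows of *MAGEA2* and *MAGEA2B*. These windows descend from common ancestors and are not independent, and a match says only that the letters are there.

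Estimated library sizes were 22386039 to 28512210 reads, larger in all 3 parental than in all 3 resistant libraries, and the deposited values are already scaled for this. A value equal to 3 reads averaged 2.83 in parental and 3.16 in resistant libraries and is used below as the limit of detection, for counting error only. The label of the line was checked by markers. All 10 markers of the tuft-cell-like SCLC subtype were above the minimum, *POU2F3* with values from 24511 to 27873. Of these 10 markers 9 passed the limma test used below, 7 higher and 2 lower in resistant cells, where 37.7% of all genes tested passed. The 6 neuroendocrine markers above the minimum, of 9 listed, all passed and were lower in resistant cells, where 19.8% of all genes tested were. The summed value of the 9 was 27289 to 28354 in parental and 17790 to 18326 in resistant libraries. None of 12 testicular germ cell markers reached the minimum. Their summed value was 0.654 to 11.9 in parental and 1.18 to 18.0 in resistant libraries, and 10 of them, *DDX4*, *DAZL* and *PRM1* included, were at 0 throughout. Of 13 markers of immune and stromal cells only 4 were above the minimum. Of these 3 passed and were higher in resistant cells, where 17.8% of all genes tested were. The summed value of the 13 was 390 to 535 in parental and 829 to 1058 in resistant libraries, while *CD3E*, *HBA1* and *HBB* were at 0. Their part in the results below was not tested.

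Few of these genes were detected in H526 cells, and most of the families were at or near 0 in both groups. Of the 99 members 66 were listed at 0 in every library, 19 were above 0 in at least 1 library with a mean under 10, and 14 were detected. The MAGEA family had 4 detected genes of 12, MAGEB 1 of 11, MAGEC 1 of 3, MAGED 4 of 4, MAGEE 1 of 2 and MAGEF 1 of 1. The 8 SSX genes proper, all 13 GAGE, all 14 CT47 and all 3 CTAG genes proper were at 0 in all 6 libraries. The highest value of any gene in any library was 4.85 in PAGE, 3.996 in XAGE and 3.55 in CT45, close to the value of 3 reads. Several of these families consist of nearly identical copies, among which reads can be divided, but a family with every copy at 0 has no counted reads to divide. Whether reads that match many copies were left out at alignment is not known here. The minimum of 10 fell in an empty stretch of the scale, since the lowest mean of a detected member was 19.98 (*MAGEE1*) and the highest mean of an undetected one 3.97 (*MAGEA4*). Of the detected members 11 lay on chromosome X, which holds 91 of the 99. The bar plot of detection by family shows this split.

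**Figure D1:**
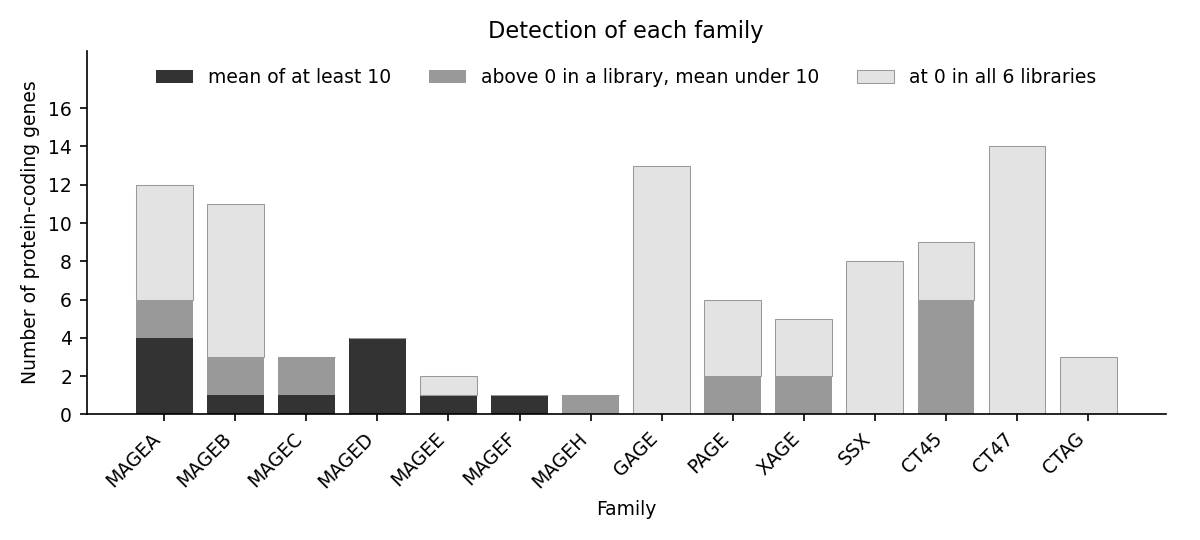
Number of protein-coding genes in each family (vertical axis) averaging 10 or more across the 6 libraries (dark), above 0 in at least 1 library but with a lower mean (grey) and at 0 in all 6 libraries (light). All 4 MAGED genes are detected, and GAGE, SSX, CT47 and CTAG are entirely light; the 7 genes that match only by the start of their symbol are not drawn.

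Per kilobase of transcript, which allows genes to be compared, the detected members spanned almost the whole range of expressed genes. *MAGED1* stood at 2373 per kb in parental cells, above 94.3% of tested protein-coding genes by its mean over all libraries, *MAGEF1* at 1773 per kb (above 93.0%) and *MAGEA3* at 1882 per kb (above 92.3%). *MAGEA6* followed at 1462 per kb. *MAGEC1* was at 152 per kb in parental and 1.24 per kb in resistant cells. The level of *MAGEA3* in these cancer cells was thus of the same order as that of the broadly used *MAGED1* and *MAGEF1*. Values below are the deposited normalised values, not per length, and are compared only between libraries.

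*MAGEC1*, which encodes a large cancer-testis antigen known from melanoma and myeloma, was almost lost. Its normalised values were 719, 597 and 619 in the parental and 4.17, 6.25 and 5.39 in the resistant libraries. The groups were far apart, and every resistant library was still above its own value of 3 reads. The mean fell from 645 ± 64.6 to 5.27 ± 1.04 (SD, n = 3), a ratio of 122.4, and the fold change on the log2(value + 1) scale was -6.70 with a standard error of 0.23. Of the 16347 genes tested 16 had a lower fold change, 1 of them on chromosome X. *MAGEC1* passed the minimum through its parental values alone, so it was bound to differ, and its change is given as a description. The gene (ENSG00000155495) lies at chrX:141903894-141909374. The nearest tested protein-coding gene after it, *FMR1*, is 6003 kb away and had a log2 fold change of 0.02 (adjusted p = 0.858, limma).

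The 2 other MAGEC genes were under the minimum. *MAGEC2*, which encodes a partner of the ligase TRIM28, was at 5.35, 6.78 and 5.89 in parental and at 0, 0 and 3.23 in resistant libraries. These values are of the order of a few reads, and its parental libraries were all above the resistant ones. The summed value of the 3 MAGEC genes went from 652 ± 63.4 to 6.35 ± 2.23 (SD, n = 3), nearly all of it *MAGEC1*.

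*MAGEA3* and *MAGEA6* had the highest values among the cancer-testis genes of these families in both groups and were a little lower in resistant cells. Their products are 95.9% identical, have 314 residues each, and guide the ligase TRIM28 to targets such as the energy sensor AMPK. *MAGEA3* had values of 3285, 3128 and 3085 in parental and 2797, 2454 and 2682 in resistant libraries, with no overlap. It fell by 0.26 on the log2 scale (standard error 0.07, adjusted p = 0.0145, limma), a call that was lost without resistant library 8 (adjusted p = 0.0570). *MAGEA6* had values of 2597, 2330 and 2452 in parental and 2357, 2027 and 2219 in resistant libraries. Its groups overlapped by 1 resistant library and its difference of -0.16 (standard error 0.08) did not pass the test (adjusted p = 0.129, limma). The transcripts of the pair are 98.6% identical, so the division of reads between them is uncertain, and the share of *MAGEA3* in the pair was 55.7% to 57.3% in parental and 54.3% to 54.8% in resistant libraries.
Summed, the pair had values of 5882, 5458 and 5537 in parental and 5154, 4481 and 4901 in resistant libraries. The groups did not overlap, and the sum fell by 0.22 on the log2 scale (standard error 0.07, adjusted p = 0.0310, limma). *MAGEA3* (ENSG00000221867) lies at chrX:152698767-152702347 on the plus strand and *MAGEA6* (ENSG00000197172) at chrX:152766136-152769716 on the minus strand.

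*MAGEA2* and *MAGEA2B* encode the same protein, an antigen that also binds TRIM28, from transcripts that are 100% identical, so their separate values cannot be interpreted. *MAGEA2B* alone had values of 1110, 822 and 704 in parental and 359, 299 and 469 in resistant libraries, a fall of 1.22 on the log2 scale (standard error 0.19, adjusted p = 0.000725, limma). *MAGEA2* alone had values of 285, 399 and 677 in parental and 579, 485 and 415 in resistant libraries, and a log2 difference of 0.20 (standard error 0.26, adjusted p = 0.585, limma). The copies thus pointed in opposite directions, and the share given to *MAGEA2* ranged from 20.4% to 49.0% in parental and from 46.9% to 61.8% in resistant libraries. The sum of the pair does not depend on that division. It was 1395, 1221 and 1381 in parental and 938, 784 and 883 in resistant libraries. Every resistant sum was below every parental one, with means of 1332 ± 96.6 and 869 ± 78.4 (SD, n = 3), and the sum fell by 0.62 on the log2 scale (standard error 0.09, adjusted p = 0.000648, limma). *MAGEA2B* (ENSG00000183305) lies at chrX:152714586-152718607 and *MAGEA2* (ENSG00000268606) at chrX:152749863-152753884, between *MAGEA3* and *MAGEA6*.

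The remaining 8 MAGEA genes were nearly silent, and *MAGEA1*, *MAGEA10* and *MAGEA12* were at 0 in all libraries. *MAGEA12* lies between *MAGEA2B* and *MAGEA2*, and its protein is 88.2% identical to that of *MAGEA2*. Of the undetected members only *MAGEA4*, an antigen targeted in T cell therapy, had any library at 10 or above. It was at 0, 0.757 and 0 in parental and at 10.1, 3.31 and 9.66 in resistant libraries. All resistant libraries lay above the value of 3 reads and all parental ones below it, so its resistant mean of 7.70 was at least 2.72-fold higher than 3 reads averaged over the parental group. The 12 MAGEA genes summed to 6958 ± 301 in parental and 5721 ± 422 in resistant libraries (SD, n = 3), a log2 ratio of -0.28 with an exact two-sided permutation p of 0.10, the smallest that 3 against 3 libraries allow.

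*MAGEB2* went the other way. It encodes a germ cell protein reported to act on stress granules, and its values were 40.1, 35.8 and 39.2 in parental and 82.6, 76.0 and 75.4 in resistant libraries. Both groups were tight and well apart. The mean rose from 38.4 ± 2.28 to 78.0 ± 3.99 (SD, n = 3), a ratio of 2.03, and the log2 difference was 1.00 (standard error 0.22, adjusted p = 0.00529, limma). The gene (ENSG00000099399) lies on the short arm at chrX:30215563-30220089, far from *MAGEC1* and the MAGEA cluster. Its relative *MAGEB6* was at 6.24, 5.81 and 3.93 in parental libraries and at 0 in all 3 resistant ones, at least 1.68-fold lower by the limit of 3 reads. Of the other 9 MAGEB genes 8 were at 0 in all libraries.

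**Figure D2:**
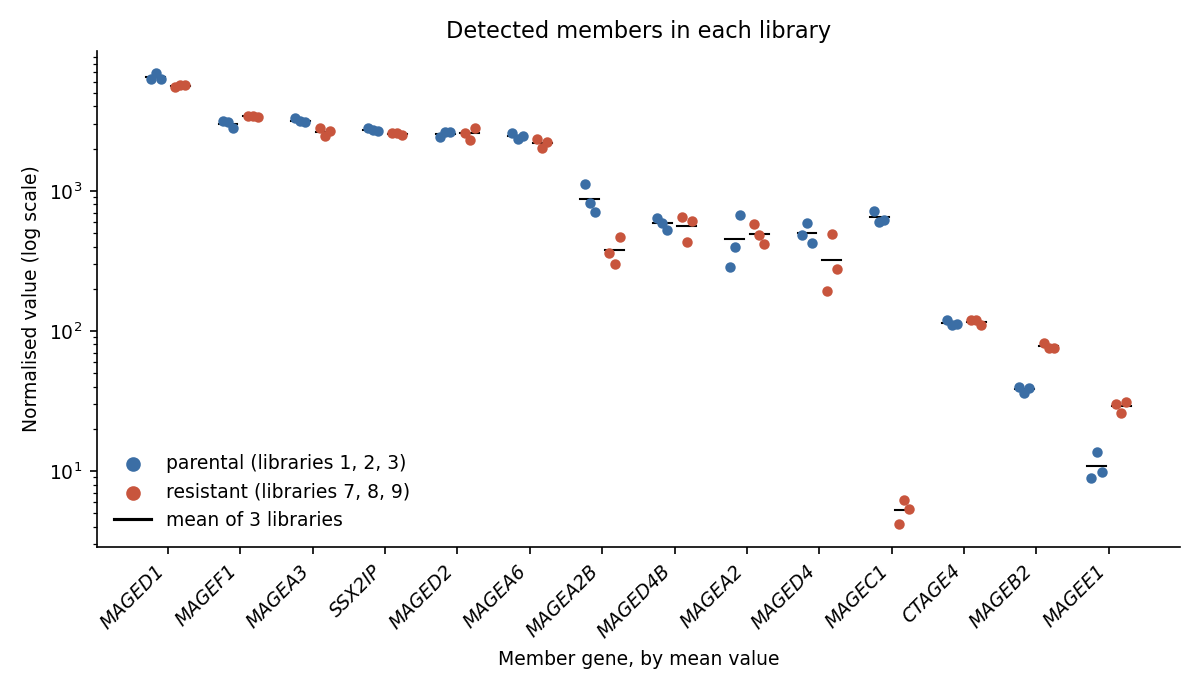
Normalised value of each of the 14 detected members (horizontal axis, ordered by mean) in the 3 parental (blue) and 3 resistant (red) libraries on a log axis, with a bar at each group mean. *MAGEC1* drops from about 645 to 5.27, *MAGEB2* and *MAGEE1* are higher in all resistant libraries, and the values of *MAGEA2* and *MAGED4* spread widely within a group.

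Of the 6 detected broadly used MAGE genes *MAGEE1* rose and *MAGED1* fell slightly. *MAGEE1*, which encodes a protein that binds the dystrophin partner dystrobrevin, had values of 8.91, 13.6 and 9.83 in parental and 30.3, 26.0 and 31.3 in resistant libraries. The groups did not overlap. It rose by 1.37 on the log2 scale (standard error 0.35, adjusted p = 0.0117, limma), from 10.8 ± 2.48 to 29.2 ± 2.78 (SD, n = 3), although its level stayed low.

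*MAGED1*, an adaptor of the neurotrophin receptor p75 and the most abundant member, had values of 6237, 6902 and 6247 in parental and 5523, 5676 and 5653 in resistant libraries. The groups did not overlap, and it fell by 0.20 on the log2 scale (standard error 0.06, adjusted p = 0.0278, limma), a call that was lost without any 1 of 5 libraries (all but parental 1), with adjusted p from 0.0509 to 0.0925. *MAGEF1*, whose product works with the ligase NSMCE1 on a factor of iron-sulfur protein assembly, had values of 3143, 3092 and 2813 in parental and 3436, 3443 and 3358 in resistant libraries. Its groups did not overlap either, but its log2 difference of 0.18 (standard error 0.07) missed the threshold (adjusted p = 0.0540, limma), which it passed without parental library 1 (adjusted p = 0.0419). It is the only MAGE gene of the detected set outside chromosome X and has a single exon. *MAGED2*, the gene mutated in a transient antenatal form of Bartter syndrome, had overlapping values of 2433, 2609 and 2632 in parental and 2602, 2320 and 2805 in resistant libraries (log2 fold change 0.01, adjusted p = 0.957, limma).

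*MAGED4* and *MAGED4B* encode the same protein, found mainly in brain and glioma, from transcripts that are 99.1% identical. *MAGED4* had values of 481, 586 and 427 in parental and 193, 489 and 275 in resistant libraries, and *MAGED4B* had 639, 591 and 525 against 646, 434 and 607. Resistant library 8 was high for the first copy and low for the second. Neither copy alone passed the test, with log2 differences of -0.73 (standard error 0.28, adjusted p = 0.0602) and -0.07 (adjusted p = 0.736, limma), and without resistant library 8 *MAGED4* passed at -1.09 (adjusted p = 0.00295, limma). The sums were 1120, 1177 and 952 in parental and 840, 922 and 882 in resistant libraries, without overlap. The sum fell by 0.29 on the log2 scale (standard error 0.10, adjusted p = 0.0374, limma). *MAGEH1* stayed under the minimum with means of 3.10 and 1.76, near the value of 3 reads.

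**Figure D3:**
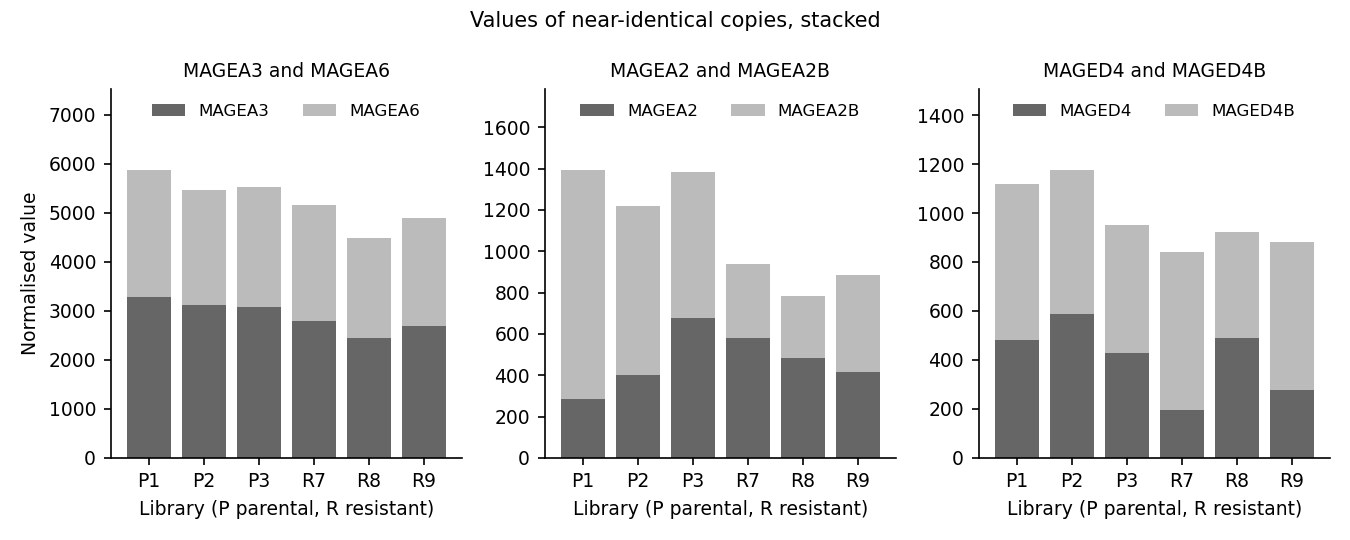
Normalised values of the copies of 3 gene pairs, stacked, in each parental (P) and resistant (R) library, with a separate vertical scale for each pair. The full height of the bars is lower in every resistant library for all 3 pairs, while the dark part, the first copy, changes in height from library to library for *MAGEA2* and *MAGED4*.

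The genes taken in by the start of their symbol alone did not pass the test. *SSX2IP*, which encodes a centrosome and cell junction protein, had values of 2811, 2707 and 2663 in parental and 2584, 2570 and 2511 in resistant libraries (log2 fold change -0.09, adjusted p = 0.260, limma). *CTAGE4*, from a family of transcribed gene copies related to a secretion factor, was at 110 to 120 in all 6 libraries (log2 fold change 0.02, adjusted p = 0.923, limma).

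Over all 14 detected members 6 passed the test, 2 higher and 4 lower in resistant cells, and with library values scaled by quantiles or to the same total the split was 3 and 3. Without *MAGEC1*, which had to differ, 5 of 13 passed, 2 higher and 3 lower. Of all genes tested 37.7% passed, 17.8% higher and 19.8% lower. The groups of 3 libraries did not overlap for 7 of these 13, where 49.9% of all genes tested did not overlap. The median log2 fold change was -0.07 over the 13 and -0.00 over all tested genes, whose median absolute change was 0.30. Among the 5 detected cancer-testis genes other than *MAGEC1* 3 passed (*MAGEA3* and *MAGEA2B* lower, *MAGEB2* higher), the value of *MAGEA2B* resting on the division of reads with its copy, and among the 6 broadly used MAGE genes 2 passed (*MAGEE1* higher, *MAGED1* lower). With near-identical copies summed and *MAGEC1* left out 6 of 10 passed, 2 higher and 4 lower. This was a separate fit, and the share of all genes that passed in it is not given here. It was run once with all 6 libraries, so the calls of the sums were not checked with single libraries left out.

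**Figure D4:**
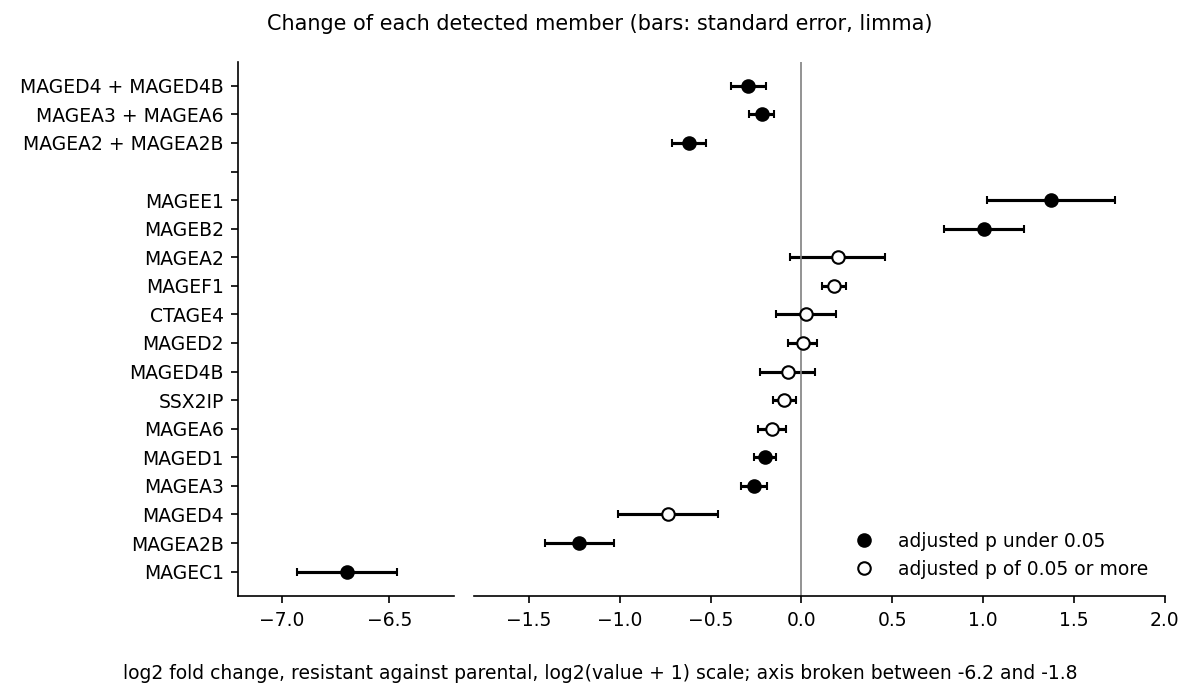
Log2 fold change of resistant against parental cells (horizontal axis, broken) with its standard error for the 14 detected members and, at the top, for the summed near-identical copies; filled points passed the test at an adjusted p of 0.05. *MAGEC1* stands alone at -6.70, *MAGEE1* and *MAGEB2* lie at 1.37 and 1.00, and the 3 summed pairs lie between -0.62 and -0.22.

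Genes beside the members were read for changes that run along the chromosome. For the 11 detected members on chromosome X, 14 tested protein-coding genes outside the symbol rule, the MAGE gene *TRO* among them, were the nearest on either side. Of these 6 passed, 2 higher and 4 lower, with log2 fold changes from -0.74 to 0.55 and a median of -0.01. On chromosome X as a whole 190 of 517 tested genes outside the symbol rule passed (36.8%), 99 of them higher. Within the MAGEA cluster the interleaved genes *CSAG2* and *CSAG3*, themselves cancer-testis genes, are arranged as mirror images. *CSAG2* lies 37 bases from *MAGEA2B* and *CSAG3* 37 bases from *MAGEA2*. *CSAG2* went from 66.3 ± 7.02 to 55.9 ± 21.3 and *CSAG3* from 77.6 ± 11.9 to 80.0 ± 17.6 (SD, n = 3), neither past the test (adjusted p = 0.441 and 0.931, limma). In resistant libraries 7, 8 and 9 *CSAG2* was at 41.1, 80.3 and 46.4 and *CSAG3* at 85.0, 60.5 and 94.6, so one was high where the other was low. Division of reads between these 2 genes was not tested, and they were not summed. On one outer side of the cluster *CETN2*, which encodes a centrosome protein 57.3 kb beyond *MAGEA6*, fell from 359 ± 34.3 to 214 ± 5.03 (log2 fold change -0.74, adjusted p = 0.00125, limma). On the other side *GABRA3*, 247 kb before *MAGEA3*, fell from 391 ± 33.5 to 309 ± 18.4 (log2 fold change -0.34, adjusted p = 0.0459, limma).
Next to *MAGED2*, *TRO* (trophinin, also named MAGED3, a MAGE gene outside the symbol rule) rose from 1712 ± 96.2 to 2499 ± 36.2, a log2 fold change of 0.55 (adjusted p = 0.000197, limma). *GSPT2*, the nearest tested gene before *MAGED1*, fell from 581 ± 29.2 to 407 ± 36.0, a log2 fold change of -0.52 (adjusted p = 0.00383, limma). *ATRX*, a chromatin remodeller 1074 kb after *MAGEE1*, rose by a log2 fold change of 0.42 (adjusted p = 0.00113, limma).

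**Figure D5:**
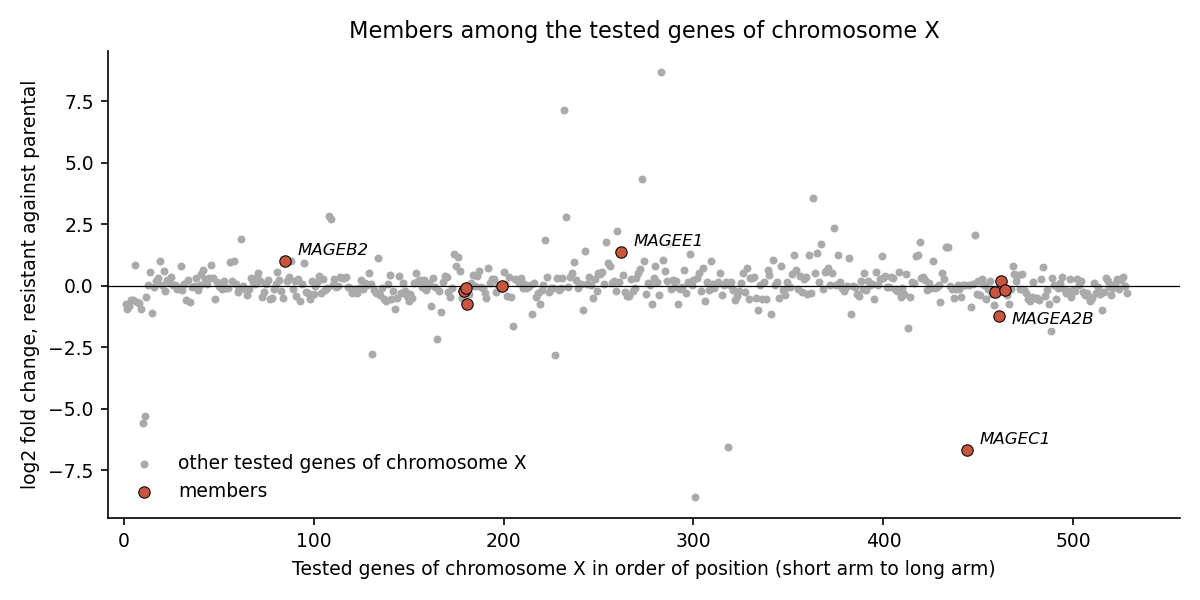
Log2 fold change of resistant against parental cells (vertical axis) for every tested gene of chromosome X in order of position, members in red and all other genes in grey. *MAGEC1* at -6.70 stands below the points beside it, most points lie near 0, and single genes elsewhere on the chromosome reach from -8.57 to 8.69.

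MAGE genes outside the symbol rule moved one by one. *MAGEL2*, an imprinted gene whose product directs endosomal protein recycling, had values of 33.0, 41.8 and 15.7 in parental and 93.9, 94.7 and 96.0 in resistant libraries. It rose by 1.73 on the log2 scale (standard error 0.34, adjusted p = 0.00285, limma). *NSMCE3*, the MAGE subunit of the SMC5-SMC6 DNA repair complex, fell from 1081 ± 4.48 to 793 ± 84.5 (log2 fold change -0.45, adjusted p = 0.00361, limma). *NDN*, which encodes the growth regulator necdin, had a log2 fold change of 0.03 (adjusted p = 0.823, limma).

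Of 16 ligase partners of MAGE proteins, their substrates and subunits of the SMC5-SMC6 complex, 14 were tested and 3 passed (21.4%, where 37.7% of all genes tested passed). The ubiquitin ligase gene *HUWE1* rose from 27546 to 46267 (log2 fold change 0.73, adjusted p = 0.00100, limma) and *SMC6* from 739 to 1084 (0.56, adjusted p = 0.00190, limma). *PRKAA1*, the AMPK catalytic subunit that MAGEA3 and MAGEA6 are known to direct to degradation, fell from 1616 to 1283 (-0.33, adjusted p = 0.00882, limma). *TRIM28*, named after its values were seen because it is the ligase of MAGEA3, MAGEA6 and MAGEC2, was at 26996 ± 1158 and 23606 ± 2771 (SD, n = 3), a difference of -0.20 that did not pass (adjusted p = 0.0897, limma).

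Most other cancer-testis genes were also low or silent. Of 110 such genes outside the families 41 were at 0 in all libraries and 29 were tested, of which 2 were above the minimum in 1 group only and so had to differ, *TEX11* among them. Of the other 27 tested genes 9 passed (33.3%, 6 higher and 3 lower), beside 37.7% of all genes tested. The meiotic recombination gene *TEX11* on chromosome X went from 1.78, 0.969 and 1.96 to 371, 323 and 379, with all parental libraries below the value of 3 reads. *AKAP3*, a gene of the sperm tail sheath, rose from 21.5 to 84.3 (log2 fold change 1.92, adjusted p = 0.000293, limma). *PRAME*, a melanoma antigen gene on chromosome 22, fell from 880 ± 113 to 477 ± 24.6 (-0.88, adjusted p = 0.000190, limma), and the transmembrane protein gene *TMEFF1* fell from 1381 to 507 (a log2 fold change of -1.44). Genes of this class thus changed in both directions.

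Genes listed as regulators of germline gene silencing passed the test about as often as other genes. Of 32 listed 31 were tested and 12 passed (38.7%, beside 37.7% of all genes tested), 6 higher and 6 lower, with a median log2 fold change of -0.05. The list mixes silencing factors with the DNA demethylase genes *TET1*, *TET2* and *TET3*, which act against methylation and were named after their values were seen. *TET1* (0.55, adjusted p = 0.0154, limma) and *TET2* (0.49, adjusted p = 0.0112, limma) are among the 6 higher. *TET3* did not pass (adjusted p = 0.372, limma). *L3MBTL2*, a subunit of the repressive PRC1.6 complex, fell from 1087 to 641 (log2 fold change -0.77, adjusted p = 0.000183, limma). *UHRF1*, which brings the maintenance methyltransferase to newly made DNA, fell from 4226 to 3317 (-0.35, adjusted p = 0.00100, limma), and the deacetylase gene *HDAC1* fell from 6074 to 4667 (-0.38, adjusted p = 0.00165, limma). *MPHOSPH8*, a subunit of the HUSH silencing complex, rose from 1647 to 2201 (0.42, adjusted p = 0.00121, limma). *DNMT1*, the maintenance methyltransferase itself, named after its values were seen, rose from 10538 to 12362 (0.23, adjusted p = 0.0105, limma). DNA methylation at the promoters was not measured in these libraries.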

How the data were processed

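Messenger RNA of 3 parental and 3 resistant H526 samples was sequenced. Per the labels and the study's methods, the authors trimmed reads with Trimmomatic 0.38, aligned and counted them with STAR and RSEM 1.3.1 on GRCh38 with Gencode v43, and deposited a signal table of DESeq2 1.30.0 normalised values per gene, not counts. Of 62757 rows 47 second copies of pseudoautosomal genes were left out. Names came from Gencode v44, which matched 62639 rows. Low values were multiples of 1 read (within 0.05 read) for only 42.5% to 59.8% of genes, so no count model was run.

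Genes with a mean of at least 10 were tested in R 4.3.3 with limma 3.58.1 on log2(value + 1), with an intensity trend and condition as the only term, and p-values were adjusted by Benjamini-Hochberg over all tested genes at 0.05. The log2 fold changes depend on the added 1 and understate those of low genes. The fit was tested on simulated data first. Family sums were compared by an exact permutation test. Copies with a protein identity of at least 95%, computed by translating the Gencode transcripts, were also summed before the fit. The samples were grouped by their labels, and 16 alternative settings were run. Named were all detected members, members with any library of at least 10, all genes of lists under 6 genes, and from each longer list at most 4 called genes, taken by p. Further names are said where they occur. Undetected genes named beside these (such as *MAGEC2* and *MAGEB6*), and neighbours, were chosen after their values were seen. The members and the lists were chosen with earlier results of these data known. Promoters came from RefSeq on GRCh38.p14. Some genes are not reported here. Figures and tables were made with Python 3.11.15.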

Additional observations from a re-analysis of the deposited data

How the results depend on the processing

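The call and direction of *MAGEB2* held in every alternative, with log2 fold changes of 0.83 to 1.07, and so did those of *MAGEE1* (0.92 to 1.54, highest adjusted p 0.0440, limma) in all but the minimum mean of 50, which left it out. *MAGEC1*, whose call the minimum fixed, ranged from -6.92 to -5.42, and *MAGEA2B*, which depends on how reads were divided with its copy, from -1.39 to -1.04. Leaving out genes above the minimum in 1 group only, chosen after seeing the data, removed *MAGEC1* alone among the members. Without a filter on low values 10 members passed in place of 6, and 8 cancer-testis genes in place of 4, because *MAGEA4*, *MAGEC2*, *MAGEB6* and *XAGE1B* were then tested and passed at values of a few reads. Of the broadly used MAGE genes 1 passed without the intensity trend in place of 2, and 1 to 3 passed when single libraries were left out. The share of all genes that passed under these alternatives is not given here, so these counts say nothing about the members as a set. The call of *MAGED1* was also lost with quantile scaling (adjusted p = 0.121), equal totals (0.122) and no intensity trend (0.0940, limma), and that of *MAGEA3* with no intensity trend (0.0581) and without resistant replicate 8 (0.0570, limma). *MAGEF1* passed with quantile scaling, equal totals, array weights, the minimum mean of 50 and without parental replicate 1 (adjusted p from 0.0139 to 0.0476, limma), and *MAGED4* passed without resistant replicate 8 (log2 fold change -1.09, adjusted p = 0.00295, limma). Directions reversed only for genes that had not passed. *MAGED2* was at -0.00875 with array weights, at -0.0199 relative to the chromosome X median, and from -0.0572 to 0.0795 when single libraries were left out. *MAGEA2* was at -0.0530 with array weights, -0.62 with its copy summed and from -0.0897 to 0.53 when single libraries were left out. *MAGED4B* went from -0.18 to 0.10 in the same way. *CTAGE4* was at -0.10 with quantile scaling and -0.00248 relative to the chromosome X median. The cause of these shifts was not tested. No paired analysis was possible because the parental and resistant libraries share no replicate numbers, and although RNA of both was taken at separate times, the labels do not say which libraries belong to the same time. With 3 libraries a group the permutation tests cannot go below 0.10, and genes at a few reads are given only as values or bounds.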
